A study of Homo sapiens with 15 samples.

Results

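The genes described here encode the proteins that take glucose into the cell and pass it through glycolysis, into the mitochondrion as pyruvate, through the pentose phosphate pathway and into the hexosamine pathway. They were chosen by symbol, from 45 names grouped by the step they serve, with earlier results of these data known. Of these names, 43 had a row among the 19845 names of the tables. The name PKM2 matched no row, and the gene is listed as PKM, so that its 2 spliced forms cannot be told apart here. TIGAR matched no row under that symbol and is listed as C12orf5, an older symbol. A value of at least 10 in 3 or more of 15 libraries was reached by 38 members, and 37 of them entered the tests. Because only members with a sufficient value in some group are tested, the counts below cover 37 genes and not all 45.

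RNA was measured in HCC1954, an established HER2-positive human breast cancer cell line. The 15 libraries came from the parental line (Pa, 3 libraries) and from cells of that line labelled by their history in brain, namely synchronous brain metastasis cells (S-BM, 4), latent residual cells (Lat, 4) and metachronous brain metastasis cells (M-BM, 4). All groups were cultured overnight in R3F at the same cell number before lysis, so the values describe cultured cells and not brain tissue. The labels name no drug, engineered allele or host, and they do not say whether the libraries of a group came from separate animals, clones or cultures. The p-values therefore measure the spread between these libraries, which may be technical. In bulk RNA, fewer cells that express a gene and less RNA per cell cannot be told apart.

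Glycolysis splits glucose into pyruvate in a chain of reactions. Its flux is set mainly at glucose uptake by SLC2A1 (GLUT1), at hexokinase and at phosphofructokinase, whose strongest activator, fructose 2,6-bisphosphate, is made and removed by the PFKFB enzymes. Glucose 6-phosphate can leave for the pentose phosphate pathway, which yields NADPH in its oxidative arm and ribose 5-phosphate for nucleotides. Fructose 6-phosphate can leave for the hexosamine pathway, which makes UDP-N-acetylglucosamine for protein glycosylation. Pyruvate enters the tricarboxylic acid cycle through the pyruvate dehydrogenase complex, which pyruvate dehydrogenase kinases (PDK) switch off and phosphatases (PDP) switch on. Breast cancers are known for high glucose uptake, and the brain has been described as a setting where tumor cells adapt their fuel use.

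Recovered reads ran from 13.25 to 21.84 M per library. Every value is a normalized count, that is, reads per gene scaled by the authors to similar library totals, with Pa scaled in a separate table. S-BM was not uniform. ERBB2, which encodes HER2, stood at 353.1 and 367.3 in S-BM 3 and 4 against 4109 and 4642 in S-BM 1 and 2, while it lay between 2836 and 3775 in Lat and between 2801 and 4184 in M-BM. S-BM 3 and 4 were also the closest pair of libraries (chi-square per degree of freedom 4.072), followed by Lat 1 and 2 (4.857), and the other pairs within groups gave 11.23 to 87.74. The other groups were not uniform either. Lat 3 gave 47.72, 50.06 and 55.18 with Lat 1, 2 and 4, and the pairs of M-BM gave 21.19 to 52.36. The closest pairs still differed by more than sampling noise and were kept as separate libraries. Of 20 markers of brain and stromal cells, 14 had a row, and their summed value was 130 to 133.2 in Pa, 104 to 126.7 in S-BM, 108 to 153.9 in Lat and 116 to 172.7 in M-BM. Most of it was MBP, with means of 106.8, 94.05, 101.2 and 113.7 in Pa, S-BM, Lat and M-BM. All 6 epithelial and HER2 markers reached a value of 10 in some library of every group. KRT19 was the low one, with means of 18.49, 11.71, 8.63 and 12.96 in Pa, S-BM, Lat and M-BM. KRT8, KRT18 and CDH1 were lower in Lat and in M-BM than in S-BM (limma adjusted p of 0.0116 or less), and the part of these differences in the results below was not tested.

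Against S-BM, the 37 tested members moved in both directions, mostly by less than 1.5-fold. Among them GFPT2, an entry enzyme of the hexosamine pathway, rose most, and PFKFB4, a control enzyme of phosphofructokinase, fell most. Larger differences stood among the low members outside the tests, namely ENO2, FBP1 and ALDOC, which are described further on. In Lat, 20 of 37 tested members passed an adjusted p of 0.05 (limma, Benjamini-Hochberg over all 9646 genes tested), with 9 higher and 11 lower. The higher ones include RPIA, which entered the tests only through Lat and M-BM libraries. Among the lower ones is PFKFB4, which entered only through S-BM and M-BM libraries. Over all genes tested, 59.7% passed, 30.2% higher and 29.4% lower, so the members' share of 54.1% was near the background. In M-BM, 14 of 37 members passed, 9 higher and 5 lower, which is 37.8% beside 52.7% of all genes (26.9% higher and 25.8% lower). The median log2 difference of the members was 0.03 in Lat and 0.04 in M-BM, beside 0.01 for all genes in each. Differences of at least 1.5-fold that passed the test were found in 1 higher and 5 lower members in Lat, where 16.1% and 17.2% of all genes did so (33.3% in either direction). In M-BM they were found in 2 higher and 2 lower members, against 12.8% and 13.4% of all genes (26.2% in either direction). The libraries did not overlap for 15 members in Lat (54.5% of all genes) and for 12 in M-BM (46.2%). Both comparisons use the same S-BM libraries, so their values are set side by side and are not separate evidence.

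The member counts depended in places on single libraries. Higher members in Lat numbered 5 without S-BM 2 and 5 without S-BM 3 and 4 together. Higher members in M-BM numbered 5 without M-BM 3, and lower members numbered 8 with DESeq2 on the recovered reads. Of the calls in Lat, 12 held in every alternative run: GPI, ALDOA, PFKFB3, PFKFB4, PDHB, PDP1, PGLS, PGD, TKT, PRPS2, GFPT2 and UAP1. Of those in M-BM, 7 did: PFKM, ALDOA, PDHA1, PDP1, PGLS, PRPS2 and GFPT2. The other calls are given below with the libraries they rest on.

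**Figure D1:**
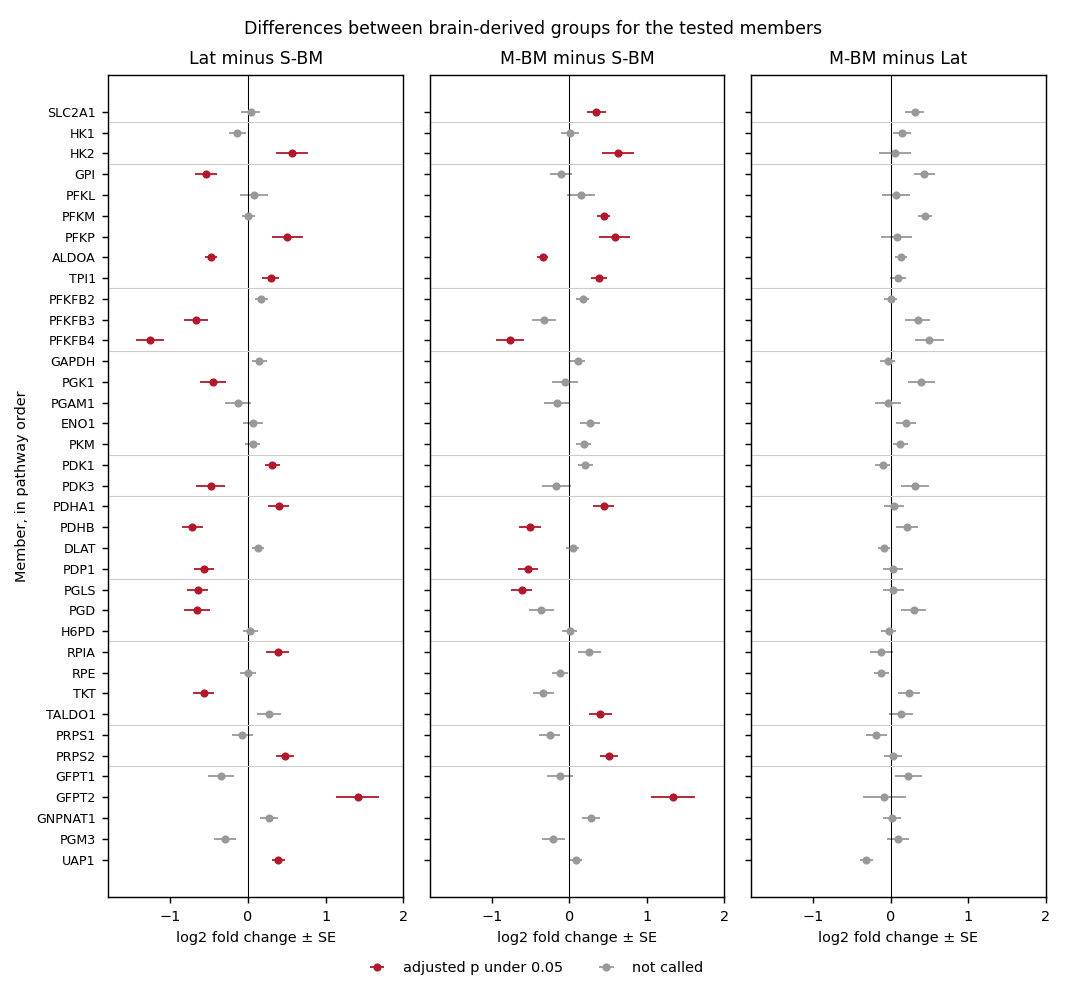
Log2 fold change with its standard error (x axis, log2(value + 1) scale) for the 37 tested members in pathway order (y axis) in the 3 contrasts, with red points for members that passed an adjusted p of 0.05 and grey points for the others. Red points lie on both sides of 0 in the 2 contrasts with S-BM, GFPT2 is the highest in both at 1.41 and 1.33, PFKFB4 is the lowest at −1.26 and −0.76, and no point is red between M-BM and Lat.

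**Figure D2:**
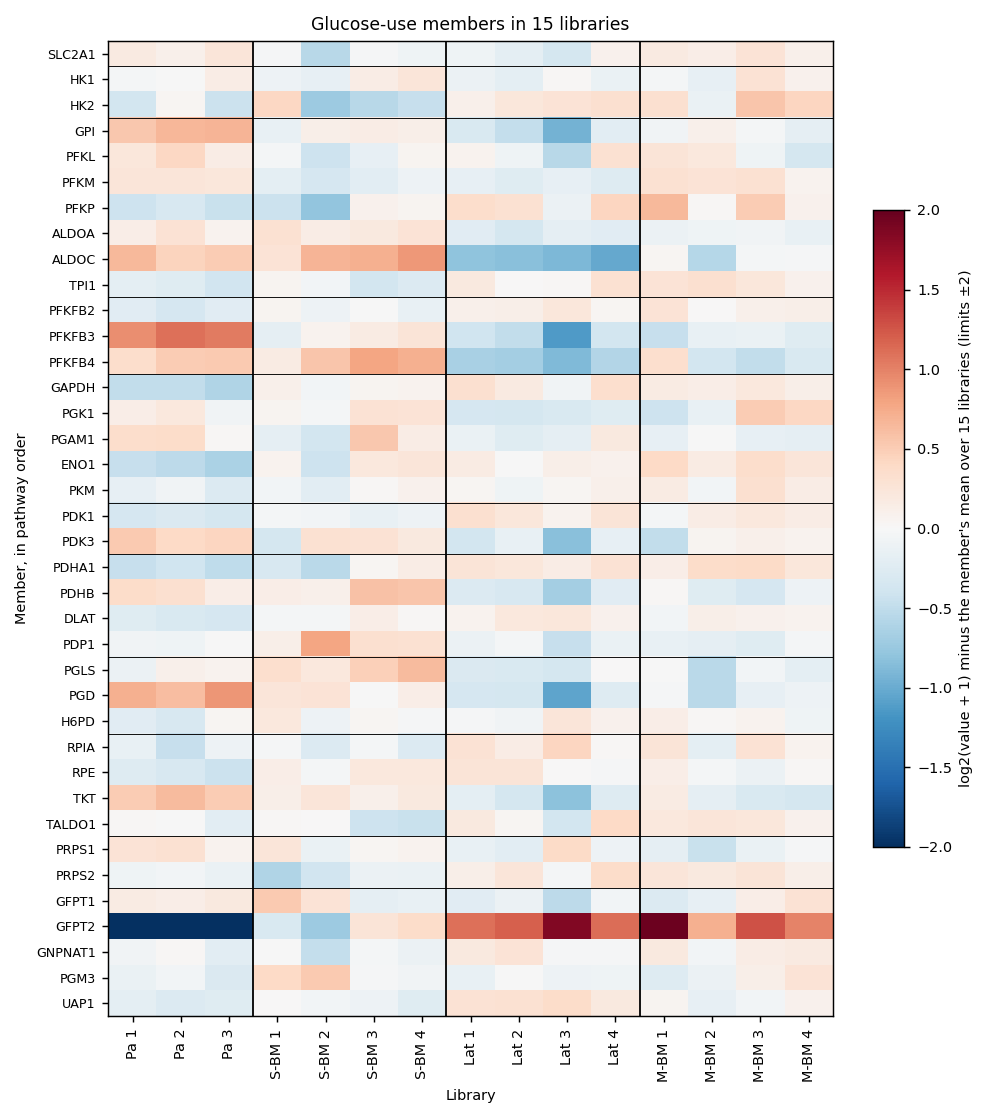
Each cell is log2(value + 1) minus that member's mean over 15 libraries, for the 38 members that reached a value of 10 in 3 libraries (rows, pathway order) in each library (columns), with color limits at −2 and 2. GFPT2 is dark blue in the 3 Pa libraries, PFKFB3 and PGD are red there, and PFKFB4 and ALDOC are blue in the 4 Lat libraries.

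Promoters are shown for GFPT2, the tested member with the largest rise, and for the 3 members whose promoter held the most matches of ACGTG, the core of the element that hypoxia-inducible factors bind. Also searched on both strands were CACGTG, the E-box, which contains ACGTG on each strand and so counts as a pair of overlapping matches, and TGACNNNGC, the core of the antioxidant element. In RefSeq windows of 300 bases (250 before and 50 after the start, GRCh38.p14), ACGTG was found in 15 of 40 member promoters (37.5%) and in 21.6% of 27305 promoters. CACGTG was found in 3 (7.5%) and 7.43%, and TGACNNNGC in 6 (15%) and 13.6%. At least 3 matches of ACGTG were held by 567 promoters (2.08%), among them those of ALDOC, PGK1 and PDHB. The 250 bases before the start are printed 5′ to 3′ on the gene's strand, with capitals on the matches:
GFPT2 (chr5:180353337-180353586, minus strand): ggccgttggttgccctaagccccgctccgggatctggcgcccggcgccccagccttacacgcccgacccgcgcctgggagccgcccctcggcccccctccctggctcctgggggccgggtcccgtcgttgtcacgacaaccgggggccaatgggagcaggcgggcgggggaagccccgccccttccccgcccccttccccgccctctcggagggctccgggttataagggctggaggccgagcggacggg
ALDOC (chr17:28576896-28577145, minus strand): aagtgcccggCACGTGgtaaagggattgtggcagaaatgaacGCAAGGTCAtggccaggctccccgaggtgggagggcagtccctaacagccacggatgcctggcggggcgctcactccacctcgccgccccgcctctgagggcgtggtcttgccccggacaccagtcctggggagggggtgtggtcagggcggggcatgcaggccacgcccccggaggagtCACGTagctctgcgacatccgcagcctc
PGK1 (chrX:78103998-78104247, plus strand): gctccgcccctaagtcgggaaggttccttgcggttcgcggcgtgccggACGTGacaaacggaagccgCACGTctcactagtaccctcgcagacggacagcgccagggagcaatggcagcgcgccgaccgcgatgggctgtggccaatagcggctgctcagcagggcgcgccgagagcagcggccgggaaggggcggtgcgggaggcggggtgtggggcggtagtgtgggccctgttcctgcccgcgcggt
PDHB (chr3:58433833-58434082, minus strand): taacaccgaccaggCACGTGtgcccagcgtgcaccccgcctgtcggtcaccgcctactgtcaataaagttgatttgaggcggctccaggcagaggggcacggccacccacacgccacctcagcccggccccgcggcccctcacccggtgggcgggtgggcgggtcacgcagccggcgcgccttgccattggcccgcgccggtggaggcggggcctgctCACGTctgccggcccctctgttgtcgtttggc
In GFPT2 none of the 3 motifs was found in the window. In ALDOC the matches start 240 and 28 bases before the start for ACGTG or its complement, the former as CACGTG, and 208 before it for the antioxidant core. In PGK1 the ACGTG matches start 202 and 183 bases before the start, and a further one lies after it. In PDHB they start 236 and 32 before it, the former as CACGTG. A match is a stretch of letters and not a measured binding site.

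Among the glucose uptake members, only SLC2A1 was well expressed. SLC2A3 (GLUT3), the neuronal type of carrier, did not exceed 0.28 in any library, near the value of 0.136 to 0.225 that 3 reads give. Sugar carriers outside the members also had RNA, and uptake was not measured. In Pa, S-BM, Lat and M-BM the means were 35.04, 8.22, 2.39 and 3.94 for SLC2A12. For SLC50A1 they were 79.99, 62.76, 36.14 and 34.4. SLC2A1 (chr1:42925353-42958868, GRCh38) stood at 112.4, 78.2, 113.3 and 108.2 in S-BM 1 to 4. It stood at 107.9, 100.3, 90.2 and 122.2 in Lat and at 130.5, 126.5, 139.8 and 123.0 in M-BM. All M-BM libraries lay above all S-BM and all Lat libraries, while Lat and S-BM overlapped. SLC2A1 was higher in M-BM than in S-BM by 0.35 ± 0.12 (log2, SE, adjusted p = 0.031). That call was lost without S-BM 2 (0.22), M-BM 1 (0.34) or M-BM 3 (0.31), with adjusted p of 0.0561 to 0.0855. In Lat the difference from S-BM was 0.04 ± 0.12 and turned negative without S-BM 2 or Lat 4. In the parental line the level was 130.01, 123.6 and 136.2, within the range of M-BM.

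Hexokinase traps glucose by phosphorylating it. HK1, the widely expressed form, showed no difference past the test, with values of 165.9 to 219.6 in S-BM, 163.3 to 189.4 in Lat and 166.7 to 227.2 in M-BM. HK2, the inducible form often raised in tumors, stood at 92.0, 41.3, 46.5 and 50.1 in S-BM 1 to 4. It stood at 73.75, 80.8, 83.8 and 86.4 in Lat and at 86.3, 62.9, 101.6 and 93.0 in M-BM. Lat and M-BM lay above S-BM 2 to 4. S-BM 1 lay above every Lat library and within the range of M-BM, so the groups overlapped. HK2 was 1.48-fold higher in Lat (adjusted p = 0.0307) and 1.54-fold higher in M-BM (adjusted p = 0.0212). Without S-BM 3 and 4 the log2 differences were 0.39 (adjusted p = 0.22) and 0.45 (adjusted p = 0.169). The Lat call was also lost without S-BM 2, 3 or 4 or Lat 2, 3 or 4 (0.43 to 0.56, adjusted p of 0.0575 to 0.0945). The M-BM call was lost without S-BM 2, 3 or 4 or M-BM 3 or 4 (0.49 to 0.58, adjusted p of 0.0505 to 0.0664).

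In the middle of the pathway, the isomerase and aldolase fell in Lat while a phosphofructokinase and triose phosphate isomerase rose. GPI, which turns glucose 6-phosphate into fructose 6-phosphate, stood at 254.9 to 314.2 in S-BM and at 228.5, 203.3, 146.0 and 244.2 in Lat. It fell 1.46-fold in Lat (adjusted p = 0.00422), with no overlap, and in M-BM it stood at 248.97 to 304.0 (log2 difference −0.11, adjusted p = 0.541). ALDOA, the main aldolase, which splits fructose 1,6-bisphosphate, stood at 716.6, 641.3, 661.8 and 699.4 in S-BM 1 to 4. It stood at 492.0, 454.0, 509.0 and 491.6 in Lat and at 530.3, 541.6, 548.9 and 519.5 in M-BM. Every Lat and M-BM library was below every S-BM library, and every Lat library was below every M-BM library. ALDOA fell by 0.48 ± 0.08 in Lat (log2, SE, adjusted p = 9.85e-05) and by 0.34 ± 0.08 in M-BM (adjusted p = 0.00176). Its sister isozyme ALDOC, the brain type, was far lower in level and is described with the members outside the tests.

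Phosphofructokinase commits sugar to glycolysis and is built from the subunits PFKL, PFKM and PFKP. PFKP, the platelet type, stood at 114.7, 89.2, 164.1 and 161.1 in S-BM 1 to 4. It stood at 196.8, 191.3, 142.5 and 207.9 in Lat and at 243.2, 157.1, 220.6 and 164.3 in M-BM. S-BM 1 and 2 lay below every Lat and M-BM library, and S-BM 3 and 4 lay within their range. PFKP was 1.42-fold higher in Lat (adjusted p = 0.0412) and 1.5-fold higher in M-BM (adjusted p = 0.0246). The Lat call was lost without S-BM 1 or 2 or Lat 1, 2 or 4 (0.33 to 0.49, adjusted p of 0.0851 to 0.133). The M-BM call was lost without S-BM 1 or 2 or M-BM 1 or 3 (0.41 to 0.53, adjusted p of 0.063 to 0.0761).

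PFKM, the muscle type, was lower in S-BM and Lat than in M-BM, whose mean was at the parental level. Its values were 43.4, 38.9, 42.9 and 46.2 in S-BM 1 to 4, 44.2, 41.9, 43.9 and 41.4 in Lat, and 61.4, 59.9, 61.3 and 52.2 in M-BM. The parental libraries stood at 58.6, 58.9 and 58.1, so that the S-BM and Lat means were 0.73 of the Pa mean and the M-BM mean 1.002 of it. All M-BM libraries were above all S-BM and Lat libraries. PFKM was higher in M-BM than in S-BM by 0.44 ± 0.09 (log2, SE, adjusted p = 0.000721), and this call held in every alternative. In Lat its difference from S-BM was 0.00 ± 0.09, with a sign that changed between alternatives. PFKL, the liver type, stayed between 27.7 and 51.0 in these 12 libraries and passed no test. TPI1, which interconverts the triose phosphates, rose by 0.29 in Lat (adjusted p = 0.0325) and by 0.38 in M-BM (adjusted p = 0.00887). Without S-BM 3 and 4, whose TPI1 values of 321.4 and 341.5 were below 431.8 and 399.3 in S-BM 1 and 2, neither call held (0.13, adjusted p = 0.37, and 0.22, adjusted p = 0.134). The Lat call for TPI1 was lost as well without S-BM 3 or 4 or Lat 1 or 4 (0.22 to 0.27, adjusted p of 0.0804 to 0.108).

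Of the 3 tested PFKFB genes, whose enzymes set fructose 2,6-bisphosphate, 2 fell in Lat and 1 in M-BM. Of all genes tested, 29.4% fell in Lat and 25.8% in M-BM, so the M-BM count was near the background. PFKFB3, the form with the highest kinase over phosphatase activity, stood at 168.6, 201.1, 214.0 and 227.9 in S-BM 1 to 4. It stood at 144.0, 135.9, 86.7 and 148.5 in Lat and at 138.4, 172.6, 173.2 and 160.6 in M-BM. All Lat libraries lay below all S-BM libraries, whereas M-BM overlapped S-BM 1. PFKFB3 fell 1.60-fold in Lat (adjusted p = 0.00208). In M-BM the log2 difference was −0.33 ± 0.16 (adjusted p = 0.0932). That difference passed the threshold with DESeq2 (adjusted p = 0.0499) and in a fit of those 2 groups alone (adjusted p = 0.0383).

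PFKFB4, another bifunctional form, linked to hypoxia and to pentose phosphate use, showed the largest fall of all tested members. It stood at 16.5, 21.96, 25.9 and 24.6 in S-BM 1 to 4, at 8.9, 8.7, 7.5 and 9.4 in Lat, and at 18.7, 11.1, 10.1 and 11.6 in M-BM. Lat lay wholly below S-BM, and M-BM did so except for M-BM 1. No Lat library reached a value of 10, so PFKFB4 entered the tests only through S-BM and M-BM libraries, where it is higher. Its fall in Lat was 1.26 ± 0.18 (log2, SE), given with no p-value for that reason, and PFKFB4 is counted among the lower members. In M-BM it fell by 0.76 ± 0.18 (limma adjusted p = 0.00337). Without S-BM 3 and 4 the M-BM difference was −0.57 (adjusted p = 0.0542). PFKFB2, the heart type, stood at 110.6 to 127.4 in S-BM, 126.3 to 143.9 in Lat and 122.7 to 148.3 in M-BM and passed no test.

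**Figure D3:**
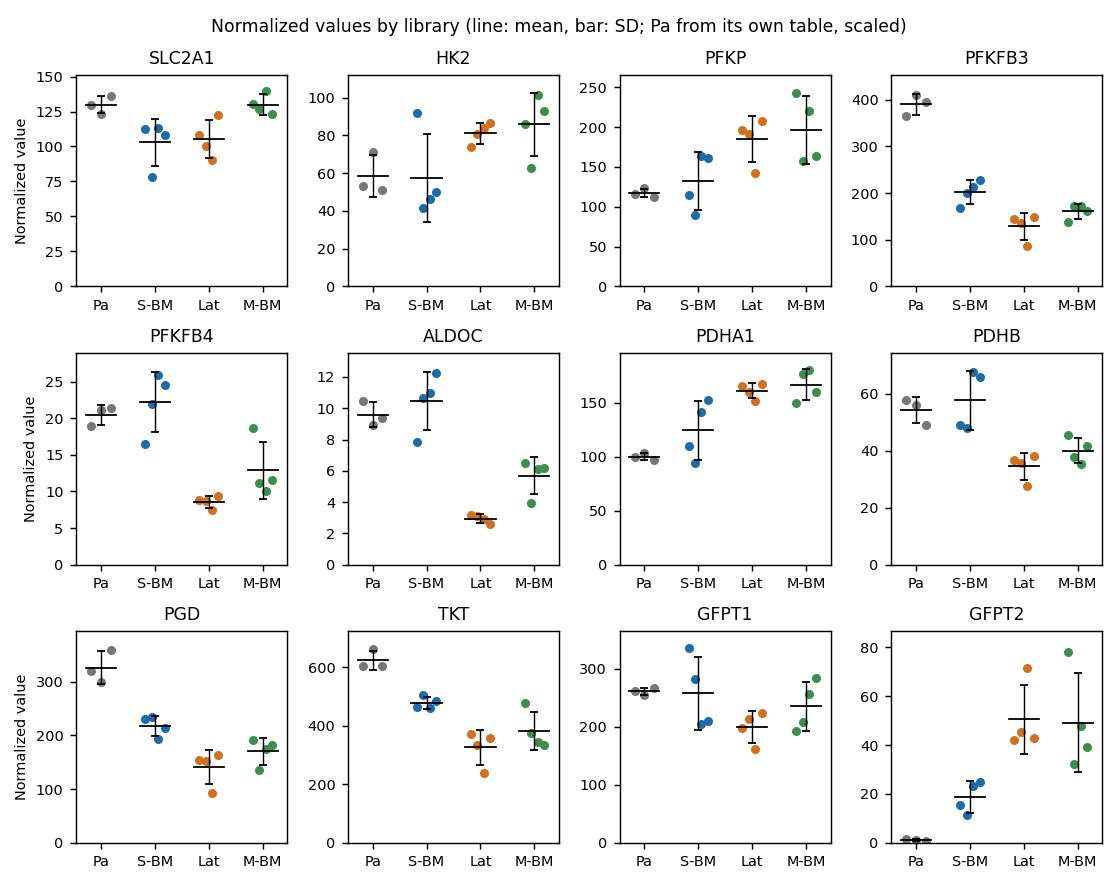
Normalized value in each library (points) with the group mean (line) and SD (bar) for 12 members, with Pa values taken from the separate table and scaled. PFKFB4 and ALDOC in Lat sit below all S-BM points, GFPT2 rises from 1.60 or less in Pa to 42.2 or more in Lat, and HK2, PFKP and PDHA1 in S-BM spread over a wide range.

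The lower part of glycolysis runs from GAPDH to pyruvate kinase. Of its 5 tested members, PGK1 fell in Lat (1 of 5, beside 29.4% of all genes), and it is described after the others. Per kilobase of merged exons the mean level in S-BM was 1435 for GAPDH, 910.3 for ENO1, 451.5 for PKM and 194.7 for PGK1. GAPDH, which makes the NADH of glycolysis, stood at 2985 to 3304 in S-BM, 2953 to 3913 in Lat and 3334 to 3589 in M-BM. ENO1, the main enolase, stood at 1583 to 2498, 2097 to 2377 and 2374 to 2801 in the same order. PKM, pyruvate kinase, stood at 1481, 1323, 1554 and 1623 in S-BM 1 to 4, at 1568, 1443, 1567 and 1641 in Lat, and at 1708, 1479, 1913 and 1702 in M-BM. These 3 genes overlapped between S-BM and Lat and passed no test, and neither did PGAM1, a phosphoglycerate mutase. GAPDH, PGK1, PGAM1, ENO1, TPI1 and other members have near-identical processed pseudogenes, and reads that the counting could split among copies make their levels uncertain.

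PGK1, which makes the first ATP of the pathway, was lower in Lat. It stood at 907, 855, 1067 and 1052 in S-BM 1 to 4 and at 696, 687, 707 and 738 in Lat, so Lat lay wholly below. In M-BM the libraries split into 658 and 790 in M-BM 1 and 2 and 1237 and 1169 in M-BM 3 and 4. PGK1 fell by 0.45 in Lat (log2, SE 0.17, adjusted p = 0.0332). That call was lost without S-BM 3 or 4 or Lat 1, 2 or 3 (−0.40 to −0.45, adjusted p of 0.0547 to 0.0824) and without S-BM 3 and 4 together (−0.32, adjusted p = 0.222). In M-BM its difference from S-BM was −0.05 and turned positive without S-BM 3 and 4, without M-BM 1 or without M-BM 2.

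At the entry of pyruvate into the mitochondrion, the subunits of one complex moved apart. PDHA1 and PDHB encode the alpha and beta subunits of pyruvate dehydrogenase (E1), which work as a tetramer, and DLAT encodes the E2 core. PDHA1 stood at 109.6, 94.1, 141.1 and 152.5 in S-BM 1 to 4, at 164.9, 160.2, 151.6 and 167.0 in Lat, and at 149.8, 176.8, 179.6 and 159.9 in M-BM. PDHB stood at 49.2, 47.9, 67.5 and 65.9 in S-BM, at 36.7, 35.6, 27.5 and 38.0 in Lat, and at 45.5, 37.7, 35.3 and 41.6 in M-BM. For PDHB both later groups lay wholly below S-BM, and for PDHA1 they lay above S-BM 1 to 3 and overlapped S-BM 4. PDHA1 rose 1.32-fold in Lat (adjusted p = 0.0189) and 1.36-fold in M-BM (adjusted p = 0.0122). PDHB fell 1.65-fold in Lat (adjusted p = 0.000567) and 1.42-fold in M-BM (adjusted p = 0.00795). The Lat call for PDHA1 was lost without S-BM 1 or S-BM 2 (0.34 and 0.27, adjusted p = 0.056 and 0.0556). The M-BM call for PDHB was lost without S-BM 3 and 4 (−0.28, adjusted p = 0.136). DLAT stood at 137.0 to 154.5 in S-BM, 148.7 to 165.0 in Lat and 136.6 to 154.2 in M-BM and passed no test.

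Among the regulators of the complex, PDP1 and PDK3 fell and PDK1 rose in Lat. PDP1, the phosphatase that activates E1, stood at 487, 778, 560 and 558 in S-BM 1 to 4, at 417, 438, 328 and 411 in Lat, and at 406, 397, 382 and 437 in M-BM. Both later groups lay wholly below S-BM, by 0.57 in Lat (log2 difference −0.57, adjusted p = 0.0023) and 0.53 in M-BM (−0.53, adjusted p = 0.00425). Among the kinases that inactivate E1, PDK1, a known hypoxia target, stood at 21.1, 21.0, 19.5 and 20.2 in S-BM, at 27.6, 25.7, 23.0 and 26.4 in Lat, and at 21.1, 24.4, 25.45 and 24.2 in M-BM. PDK1 rose 1.24-fold in Lat with no overlap (adjusted p = 0.0117), and without S-BM 3 and 4 that call was lost (0.27, adjusted p = 0.0821). In M-BM its log2 difference of 0.21 had an adjusted p of 0.0814, and it passed without M-BM 1 (0.26, adjusted p = 0.0403). PDK3 stood at 70.9, 112.1, 110.6 and 103.7 in S-BM and at 70.0, 82.1, 50.6 and 80.7 in Lat, a fall of 0.48 (adjusted p = 0.0367) with S-BM 1 inside the Lat range. The PDK3 call was lost without S-BM 2, 3 or 4, Lat 1 or Lat 3 (−0.33 to −0.49, adjusted p of 0.0651 to 0.12) and without S-BM 3 and 4 together (−0.35, adjusted p = 0.221). PDK2 stayed at or below 2.58 and PDK4 at or below 0.06.

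In the oxidative arm of the pentose phosphate pathway, both tested enzymes that act in the cytosol after its entry step were lower in Lat. PGLS, the lactonase, stood at 32.1, 29.45, 35.4 and 39.8 in S-BM 1 to 4, at 20.4, 20.3, 19.6 and 25.2 in Lat, and at 25.1, 17.1, 24.3 and 21.7 in M-BM. Both later groups lay wholly below S-BM, 1.57-fold in Lat (adjusted p = 0.000947) and 1.53-fold in M-BM (adjusted p = 0.00185). PGD, the decarboxylating dehydrogenase that yields NADPH and ribulose 5-phosphate, stood at 229.9, 234.9, 193.2 and 214.2 in S-BM. It stood at 153.4, 152.3, 93.3 and 163.3 in Lat and at 191.6, 134.6, 174.1 and 181.1 in M-BM. No Lat or M-BM library reached the lowest S-BM library. PGD fell by 0.66 ± 0.16 in Lat (log2, SE, adjusted p = 0.00317), and in M-BM the difference was −0.36 ± 0.16 (adjusted p = 0.0741). The M-BM difference passed with DESeq2 (adjusted p = 0.0344) and in a fit of those 2 groups alone (adjusted p = 0.0302). H6PD, which runs a like pair of steps inside the endoplasmic reticulum, stood between 44.5 and 56.7 in the 12 libraries and passed no test.

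The non-oxidative arm shuffles sugar phosphates between ribose and glycolysis, and its members did not move as a group. TKT, transketolase, stood at 464.5, 504.1, 460.1 and 486.2 in S-BM 1 to 4, at 372.4, 334.4, 240.0 and 357.6 in Lat, and at 476.2, 375.3, 345.2 and 335.8 in M-BM. Lat lay wholly below S-BM, whereas M-BM 1 fell within the S-BM range. TKT fell by 0.57 in Lat (adjusted p = 0.00287). In M-BM the difference was −0.33 (adjusted p = 0.0569), and it passed without M-BM 1 (−0.44, adjusted p = 0.0148). TALDO1, transaldolase, stood at 213.1, 209.8, 157.2 and 153.2 in S-BM, 161.7 to 275.9 in Lat and 221.7 to 248.0 in M-BM. It was higher in M-BM by 0.40 (adjusted p = 0.0402) with all M-BM libraries above all S-BM libraries. That call was lost without S-BM 3 and 4 (0.18, adjusted p = 0.398), and without S-BM 3 or 4 or M-BM 1, 2 or 3 (0.32 to 0.39, adjusted p of 0.0732 to 0.116). In Lat the TALDO1 difference was 0.27 (adjusted p = 0.142), and it passed without Lat 3 (0.42, adjusted p = 0.0164).

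RPIA and RPE interconvert the pentose phosphates, and PRPS1 and PRPS2 turn ribose 5-phosphate into phosphoribosyl pyrophosphate, the start of nucleotide synthesis. RPIA was low, at 7.2 to 8.7 in S-BM, 9.1 to 12.4 in Lat and 7.6 to 11.1 in M-BM, and it entered the tests only through Lat and M-BM libraries. Its difference in Lat was 0.38, given with no p-value for that reason, and RPIA is counted among the higher members. The call behind that count was lost without S-BM 2 or 4 or Lat 1, 2 or 3 (0.31 to 0.40, adjusted p of 0.0606 to 0.104). It was also lost without S-BM 3 and 4 together (0.37, adjusted p = 0.117). RPE, at 84.9 to 109.9 in the 12 libraries, passed no test. PRPS2 stood at 79.2, 92.2, 110.9 and 108.9 in S-BM 1 to 4, at 130.4, 142.0, 117.3 and 155.5 in Lat, and at 142.1, 138.3, 143.5 and 130.9 in M-BM. Every library of both later groups was above every S-BM library. PRPS2 rose by 0.48 ± 0.12 in Lat (log2, SE, adjusted p = 0.00271) and by 0.51 ± 0.12 in M-BM (adjusted p = 0.00223). PRPS1 stood at 80.7 to 105.7 in S-BM, 76.4 to 116.7 in Lat and 64.8 to 87.2 in M-BM and passed no test.

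The hexosamine pathway held the largest rise among the 37 tested members. GFPT1 and GFPT2 encode glutamine fructose-6-phosphate transaminase, which commits fructose 6-phosphate and a glutamine nitrogen to the pathway and sets its rate. GFPT2 (chr5:180300698-180353336, GRCh38) stood at 15.4, 11.2, 23.3 and 25.1 in S-BM 1 to 4. It stood at 42.2, 45.2, 71.7 and 42.8 in Lat and at 78.0, 32.1, 47.7 and 39.2 in M-BM. Every library of the later groups was above every S-BM library, with the highest values in Lat 3 and M-BM 1. GFPT2 rose 2.66-fold in Lat (log2 1.41, SE 0.28, adjusted p = 0.000677) and 2.52-fold in M-BM (log2 1.33, SE 0.28, adjusted p = 0.00137), on the log2(value + 1) scale. Across the alternatives the log2 difference ran from 1.08 to 1.83 in Lat and from 1.02 to 1.75 in M-BM, past the threshold in each.

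GFPT1, the more widely expressed form, stood at 335.7, 282.2, 204.7 and 209.3 in S-BM 1 to 4. It stood at 198.2, 214.1, 162.2 and 223.6 in Lat and at 193.3, 207.5, 255.8 and 284.7 in M-BM. S-BM 3 and 4, the libraries with low ERBB2, lay within the range of Lat, and S-BM 1 and 2 lay above it. The difference in Lat was −0.35 ± 0.17 (log2, SE, adjusted p = 0.0915). It passed without S-BM 3 (−0.45, adjusted p = 0.044), without S-BM 3 and 4 together (−0.63, adjusted p = 0.00821) and with DESeq2 (−0.38, adjusted p = 0.047). In M-BM it was −0.12 (adjusted p = 0.58), with a positive sign without S-BM 1.

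Of the later hexosamine steps, UAP1, which joins N-acetylglucosamine phosphate to UTP, rose in Lat. It stood at 65.9, 62.9, 60.6 and 54.9 in S-BM 1 to 4, at 80.3, 81.2, 84.7 and 75.1 in Lat, and at 68.0, 58.2, 62.6 and 69.5 in M-BM. Lat lay wholly above both other groups, and M-BM overlapped S-BM. UAP1 rose by 0.39 ± 0.09 in Lat (log2, SE, adjusted p = 0.00169), and in M-BM the difference was 0.08 ± 0.09 (adjusted p = 0.466). GNPNAT1, the acetyltransferase, stood at 98.6 to 138.2 in S-BM, 135.5 to 167.7 in Lat and 133.1 to 158.8 in M-BM, with adjusted p of 0.0641 and 0.0562. PGM3, the mutase, was split within S-BM into 116.1 and 127.6 in S-BM 1 and 2 and 86.6 and 83.6 in S-BM 3 and 4, beside 78.9 to 87.1 in Lat and 73.1 to 107.1 in M-BM. Neither GNPNAT1 nor PGM3 passed a test.

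Between M-BM and Lat, where 0.145% of all genes passed the test (14 of 9646, 0.0933% higher and 0.0518% lower, each by 1.5-fold or more), no member did. At an unadjusted p under 0.05 there were 7 of 37 members, namely SLC2A1, GPI, PFKM, PFKFB3, PFKFB4, PGK1 and UAP1, and 1048 of 9646 genes in all. The libraries of M-BM and Lat did not overlap for 6 members, beside 7.3% of all genes. The lowest adjusted p among members was 0.07, for PFKM, which was 0.44 ± 0.09 higher in M-BM. With DESeq2 on the recovered reads, PFKM (0.44, adjusted p = 0.00106) and UAP1 (−0.33, adjusted p = 0.0302) passed, and with edgeR no member did. Of 37 members, 27 had a higher estimate in M-BM and 10 a lower one, with a median of 0.08 beside 0.01 for all genes. That split was not set against the split of all genes. The members were measured in the same libraries, so it is a description only. GFPT2 differed by −0.08 ± 0.28 and changed sign without Lat 3, M-BM 2 or M-BM 4.

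Members outside the tests had low values. ALDOC, which reached 10 only in Pa 1 and S-BM 2 to 4, stood at 7.9, 10.7, 10.95 and 12.3 in S-BM, at 3.2, 3.1, 2.9 and 2.6 in Lat, and at 6.5, 3.9, 6.1 and 6.2 in M-BM. The 3 groups did not overlap. With the filter lowered to a value of 1, ALDOC was lower by 1.53 in Lat (log2 difference −1.53, adjusted p = 5.08e-06) and by 0.78 in M-BM (−0.78, adjusted p = 0.00146). ENO2, the neuronal enolase, stood at 0.17 to 0.87 in S-BM, 3.05 to 7.40 in Lat and 3.0 to 6.19 in M-BM, and FBP1, a gluconeogenic phosphatase that opposes phosphofructokinase, at 0.29 to 1.25, 3.10 to 11.1 and 1.33 to 2.04. ENO2 passed even that lower filter only through Lat and M-BM, where it is high, and FBP1 only with their libraries, so their differences are given with no test. The ENO2 log2 differences from S-BM were 1.82 in Lat and 1.91 in M-BM, and those of FBP1 were 1.78 and 0.67.

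The balance of isozymes within a step was described as the share of each isozyme in the summed level per kilobase, with no test. GFPT2 made up 1.22% of the GFPT level in Pa, 17.7% in S-BM (10 to 25.2%), 41.3% in Lat (35.0 to 55.4%) and 36.4% in M-BM (27.9 to 53.2%). Without correction for length these means were 0.436, 7.28, 20.4 and 17.5%. PFKP made up 51.6, 61.1, 68.3 and 65.9% of the phosphofructokinase level in Pa, S-BM, Lat and M-BM. PFKFB3 made up 80.9, 65.9, 57.6 and 61.9% of the PFKFB level in that order, and PFKFB2 12.6, 23.1, 36.5 and 30.6%. HK2 made up 19.4, 19.0, 26.9 and 25.8% of the hexokinase level. ENO1 and ALDOA remained nearly alone at their steps, at no less than 99.8% and 98.0% in any library.

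**Figure D4:**
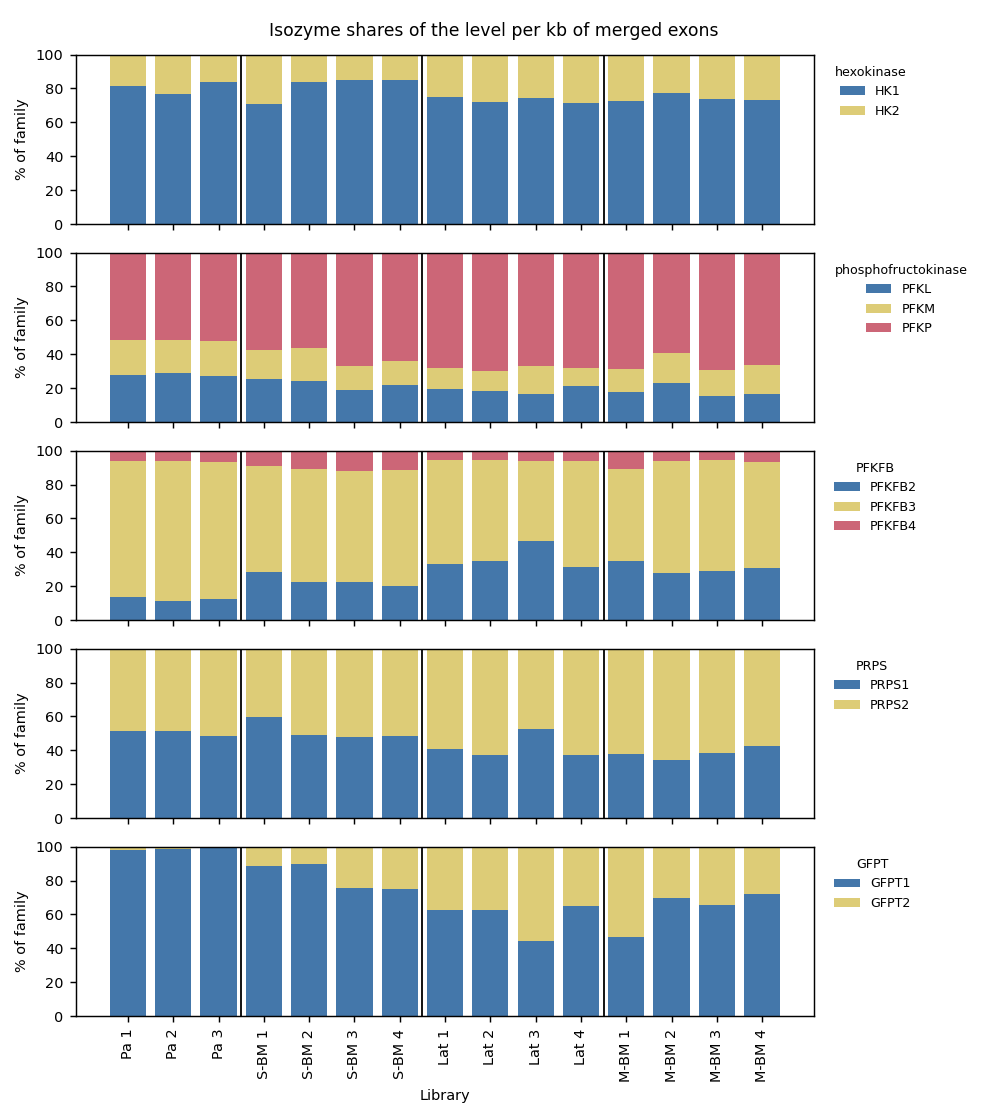
Stacked bars give each isozyme's percentage of its family's level per kilobase of merged exons (y axis) in each of 15 libraries (x axis), in 5 families. The GFPT2 share (lower panel, upper color) is at most 1.69% in Pa, 10 to 25.2% in S-BM and at least 27.9% in every Lat and M-BM library.

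Against the parental line only levels were compared, because Pa was normalized in its own table, and a factor of 1.0062 (the median ratio of shared genes) was applied to its values. A member was counted as apart when its libraries did not overlap those of Pa and the means differed at least 1.5-fold. In S-BM, 1 of 38 members was apart above Pa (7.32% of 10051 genes) and 1 below (8.43%). Among Lat members, 5 were apart above (21.7% of genes) and 8 below (24.2%). In M-BM, 5 were apart above (19.6%) and 6 below (21.6%). The member apart above Pa in S-BM was GFPT2, at 1.60, 1.01 and 0.82 in the 3 Pa libraries, and its group means were 16.4, 44.2 and 43.1 times the Pa mean in S-BM, Lat and M-BM. The S-BM counts moved to 3 above without Pa 1, Pa 2 or S-BM 2, and to 3 below without Pa 1 or S-BM 2.

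PFKFB3 was the member apart below Pa in S-BM, and it was lower in all 3 brain-derived groups. It stood at 366, 410 and 395 in Pa, and the group means were 0.52, 0.33 and 0.41 of the Pa mean in S-BM, Lat and M-BM. GPI, PGD, TKT, PFKFB4 and ALDOC were apart below Pa in both Lat and M-BM, and PDHB and PDK3 in Lat. The PGD mean was 0.67, 0.43 and 0.52 of the Pa mean in the same order. ENO1, GAPDH, PFKP and PDHA1 were apart above Pa in both Lat and M-BM, together with GFPT2. The GAPDH mean was 1.49, 1.66 and 1.61 times Pa, so that levels of this common reference gene were not equal between the tables.

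**Figure D5:**
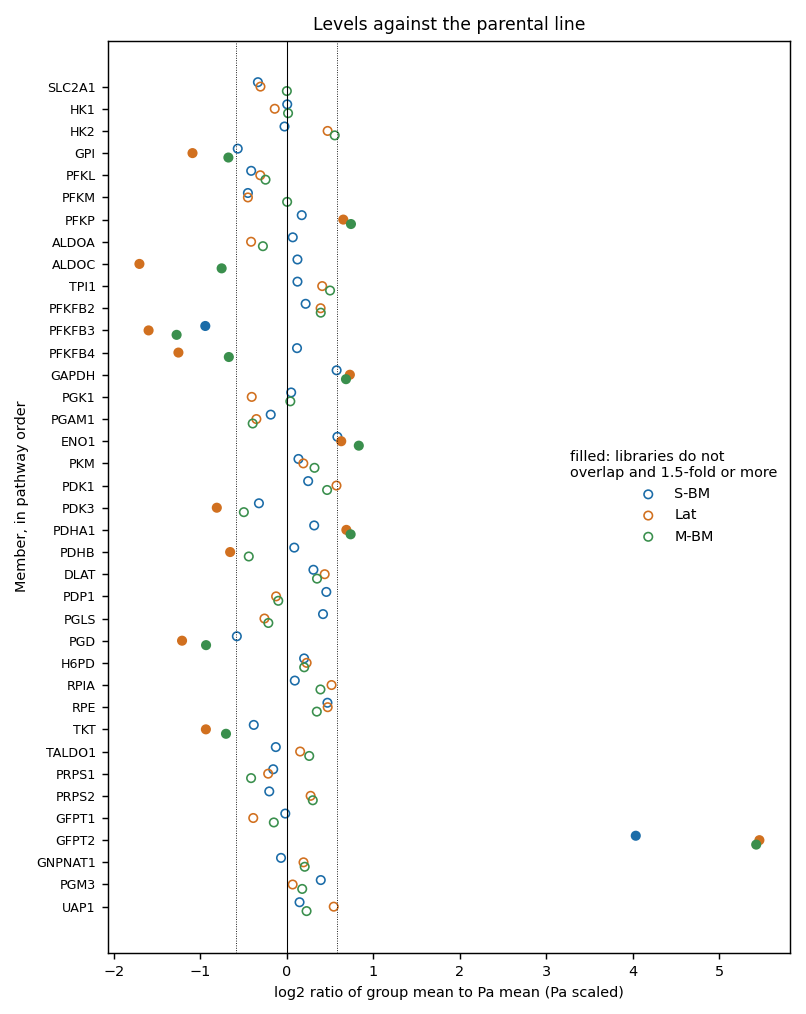
Log2 ratio of each group mean to the scaled Pa mean (x axis) for 38 members (y axis), with dotted lines at 1.5-fold and filled circles where libraries did not overlap and the ratio passed 1.5-fold. GFPT2 lies far to the right of all other members, and PFKFB3 is filled to the left in all 3 groups.

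The other genes around these pathways were counted in lists, chosen with earlier results of these data known. Each count is to be read beside the 30.2% of all genes that rose and 29.4% that fell in Lat, and the 26.9% and 25.8% in M-BM. Of 17 tested genes of glycogen and sugar interconversion, 5 rose and 10 fell in Lat, and 3 rose and 9 fell in M-BM, with median log2 differences of −0.55 and −0.44 beside 0.01 for all genes in each. The risen genes were no larger a share than that of all genes in either comparison, and the fallen genes were a larger one. PYGL, the liver glycogen phosphorylase, stood at 134.8 to 208.4 in S-BM, 16.8 to 66.4 in Lat and 18.7 to 70.2 in M-BM. GYS1, the muscle type of glycogen synthase, stood at 68.6 to 85.7, 21.3 to 29.4 and 30.9 to 40.5 in the same order. Both fell in Lat and in M-BM (adjusted p of 0.000544 or less), as did PGM2L1, a sugar bisphosphate synthase (log2 −2.41 and −2.05). PYGB, the brain glycogen phosphorylase, rose by 0.84 and 1.10. Without S-BM 3 and 4 the number of risen genes in Lat was 3.

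Of 8 further tested glycolytic and gluconeogenic genes, 0 rose and 4 fell in each comparison, where 29.4% and 25.8% of all genes fell. At a filter value of 1, which tests more genes of that list, 2 rose in Lat and 1 in M-BM. GPD2, the mitochondrial enzyme of the glycerol phosphate shuttle that passes glycolytic electrons to the respiratory chain, stood at 162.8 to 211.3 in S-BM. It stood at 5.1, 6.0, 27.8 and 6.8 in Lat and at 14.7, 5.2, 6.4 and 65.0 in M-BM. It reached a value of 10 in all 4 S-BM libraries but only in Lat 3, M-BM 1 and M-BM 4 of the others, so that its entry into the tests rested on S-BM, where it is high. GPD2 fell 18.9-fold in Lat and 12.7-fold in M-BM. These differences are given with no test, and GPD2 is counted among the 4 fallen genes. Its log2 difference of −4.24 in Lat was −4.75 without Lat 3, and that of −3.67 in M-BM was −4.385 without M-BM 4. GPD1L, a cytosolic relative, fell 4.32-fold and 2.97-fold. BPGM, which diverts 1,3-bisphosphoglycerate, fell by 0.88 and 0.78 on the log2 scale.

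In the list on hexosamine salvage and sugar nucleotides, 3 of 9 tested genes rose and 2 fell in Lat (30.2% and 29.4% of all genes), and 4 rose and 3 fell in M-BM (26.9% and 25.8%). The Lat counts were near the background. Risen genes in M-BM numbered 2 in a fit of those 2 groups alone. UAP1L1, a relative of UAP1, stood at 0.57 to 1.87 in S-BM, 10.3 to 16.4 in Lat and 7.2 to 22.2 in M-BM. CMAS, which activates sialic acid, stood at 8.5 to 11.8, 24.9 to 32.7 and 25.8 to 32.2 in that order. UAP1L1 entered the tests only through Lat and M-BM libraries, so it had to differ, and it is counted among the risen genes. Its log2 differences were 2.74 and 2.77. CMAS reached a value of 10 in every Lat and M-BM library but not in every S-BM library. Its entry thus rested on the groups where it is high, and it is also counted among the risen genes. The log2 differences of CMAS were 1.41 and 1.38. The count of fallen genes in that list was 1 in Lat without S-BM 1, Lat 1 or Lat 2, and 4 without Lat 4. It was 1 in M-BM without S-BM 1, 3 or 4, M-BM 1 or M-BM 2, and 1 without S-BM 3 and 4. At a filter value of 1, which tests more genes of that list, it was 4 in Lat and 5 in M-BM.

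In the remaining lists, 4 of 5 other pentose phosphate genes rose in Lat (30.2% of all genes) and 2 in M-BM (26.9%), with none lower (1 lower in M-BM without S-BM 3 and 4), and 2 of 5 rose in Lat without S-BM 4, without Lat 3 or without S-BM 3 and 4. In M-BM 1 rose without S-BM 3 or 4 or M-BM 2 or 3, or without S-BM 3 and 4. C12orf5 (TIGAR), which removes fructose 2,6-bisphosphate, stood at 43.2 to 63.1 in S-BM, 63.3 to 84.2 in Lat and 56.9 to 75.2 in M-BM and rose by 0.54 in Lat (adjusted p = 0.00256). Its M-BM call (0.38, adjusted p = 0.024) was lost without S-BM 3 or 4, without both or without M-BM 2 or 3 (0.20 to 0.37, adjusted p of 0.0505 to 0.274). Of 6 other pyruvate entry genes, 1 rose and 3 fell in each comparison, beside 30.2% and 29.4% of all genes in Lat and 26.9% and 25.8% in M-BM. PDHX, which anchors E3 to the complex, was among the fallen (log2 −0.48 and −0.43). The single rise in Lat was lost without S-BM 1, S-BM 2, Lat 2 or Lat 4, the falls in Lat numbered 5 without S-BM 3 and 4, and those in M-BM 1 without M-BM 1. Of 2 other tested sugar carriers, SLC50A1 fell in both (log2 −0.79 and −0.87). At a filter value of 1, which tests more of these carriers, 3 rose and 3 fell in Lat, and 2 rose and 3 fell in M-BM.

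Among 16 tested regulators of glucose use, 7 rose and 5 fell in Lat (30.2% and 29.4% of all genes), and 5 rose and 3 fell in M-BM (26.9% and 25.8%). The falls in Lat and the rises in M-BM were near the background. EGLN3, a prolyl hydroxylase induced by hypoxia, stood at 18.1 to 30.5 in S-BM, 3.4 to 5.0 in Lat and 4.5 to 9.99 in M-BM, with log2 differences of −2.11 and −1.68. It entered the tests only through the 4 S-BM libraries, so it had to differ, and without any 1 of them it was not tested. MYC, a driver of glycolytic genes, rose by 0.76 and 0.66, and PRKAA2, a catalytic subunit of AMP kinase, by 1.09 and 1.00. TXNIP, which lowers glucose uptake and is induced by glucose, stood at 90.4, 88.8, 1481 and 81.9 in Lat 1 to 4 and at 16.7 to 71.2 in S-BM. Its log2 difference in Lat was 2.49 (adjusted p = 0.0191), 2.21 (adjusted p = 0.0532) without S-BM 3, 1.47 (adjusted p = 0.0374) without Lat 3 and 1.71 (adjusted p = 0.175) without S-BM 3 and 4. Lat 3, the library with that TXNIP value, also held the lowest GPI, PFKFB3, TKT and PGD and the highest GFPT2 of the Lat libraries. The number of fallen regulators in Lat was 3 without S-BM 1, 3 or 4 and 2 without S-BM 3 and 4, and in M-BM it was 1 without S-BM 1.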

How the data were processed

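Per the labels, RNA of cultured HCC1954 cells was purified on RNeasy columns and made into libraries with TruSeq RNA v2, which does not mark strand, so sense and antisense reads cannot be told apart. The submitters' processing notes name Bowtie 0.12.2 and GRCh38. What counted the reads, with which annotation, and how they were scaled is not given in the sources used here. As signal, the authors deposited normalized counts, scaled to column sums of 963150 to 1026297. All values were whole multiples of a single step per library (100% within 0.05 reads), so reads were recovered, 13.25 to 21.84 M per library. A floor of 3 reads, which covers counting error only, corresponds to values of 0.136 to 0.225.

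Libraries were grouped by title. The 12 S-BM, Lat and M-BM libraries, which share a table, were fitted with limma 3.58.1 (R 4.3.3) on log2(value + 1), with a variance trend and 1 mean for each of 3 groups (residual degrees of freedom 9). Genes with a value of at least 10 in at least 4 of 12 libraries were tested (9646), with two-sided p-values, Benjamini-Hochberg adjusted, called under 0.05. Fold changes are on that log scale and understate changes of low genes. The count tests edgeR 4.0.16 and DESeq2 1.42.0 were run on recovered reads as alternatives, with other pseudocounts, filters, scalings and sample sets. The fitting scripts were tested on simulated data. Pa was compared by levels only.

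Values per library are given for members called at 1.5-fold or more and for a set of members that commit sugar to a branch (13 in all), and 13 further called members were named after their values were seen. Up to 4 called genes with the largest change were taken from each further list. The members, lists and rules were chosen with earlier results of these data known. Levels per kilobase use merged exons of GENCODE basic annotation on GRCh38, and promoters and gene positions come from RefSeq on GRCh38.p14. Residuals of libraries with the same replicate number in different groups correlated at −0.272 to 0.319, with 4 of 12 pairs above 0.1. Pairs with other numbers gave −0.305 to 0.322, with 7 of 36 above 0.1. The labels state no pairing by number, so the number was used as a block only in an alternative.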

Additional observations from a re-analysis of the deposited data

Results flagged for a closer look

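In 153 sets of 4 libraries (26 members and 25 genes of other lists in 3 groups), 15 held a library whose gap to its neighbor took up more of the group's range than 4 values usually show, and chance flags about 1 in 20 such groups. Among members these were SLC2A1 in S-BM 2 at 78.23 (the others 108.2 to 113.3), GPI in S-BM 1 at 254.9 (305.8 to 314.2), PFKM in M-BM 4 at 52.18 (59.86 to 61.4) and PDK3 in M-BM 1 at 64.45 (94.34 to 97.95). Lactonase PGLS stood at 25.18 in Lat 4 (19.62 to 20.39). Lat 3 stood apart for PGD at 93.29 (152.3 to 163.3) and for GFPT2 at 71.7 (42.21 to 45.24). Among genes of other lists, Lat 3 stood apart for GPD2 at 27.75 (5.136 to 6.835), PYGL at 66.42 (16.81 to 24.39) and TXNIP at 1481 (81.94 to 90.44). M-BM 4 stood apart for GPD2 at 64.98 (5.151 to 14.72) and for PGM2L1 at 98.46 (42.79 to 47.08). PRPSAP1, a PRPS-associated protein, stood at 37.85 in S-BM 2 (28.49 to 29.97) and at 36.26 in Lat 4 (39.19 to 39.75), and PYGB at 46.45 in S-BM 2 (66.08 to 70.01).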

How the results depend on the processing

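Of the differences of named members under each alternative, 1335 kept their direction and their side of the threshold, 71 lost the call, 17 gained one and 31 changed direction, all 31 at an adjusted p of 0.467 or more. The cause was not tested. In Lat minus S-BM the changes of direction were PFKM with edgeR (−0.0033), DESeq2 (−0.0033) and without single libraries (−0.0423 to 0.0384), HK1 without S-BM 3 and 4 (0.0269), and SLC2A1 without single libraries (−0.0895 to 0.106). In M-BM minus S-BM they were HK1 with edgeR (−0.0052), DESeq2 (−0.0099) and without single libraries (−0.071 to 0.0777), PGK1 without S-BM 3 and 4 (0.0805) and without single libraries (−0.189 to 0.114), and GFPT1 without single libraries (−0.218 to 0.0185). In M-BM minus Lat, leaving out single libraries gave PFKP −0.0413 to 0.176, PDP1 −0.0588 to 0.081, PGLS −0.0287 to 0.147, TALDO1 −0.0148 to 0.241, PRPS2 −0.0375 to 0.0969, HK2 −0.025 to 0.203 and GFPT2 −0.324 to 0.0983.

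Without a filter, 6 Lat calls (HK2, PFKP, TPI1, PGK1, PDK3, RPIA) and the M-BM call of TALDO1 were lost, at adjusted p of 0.0514 to 0.0694. With edgeR the Lat calls of HK2 and PFKP were lost (adjusted p of 0.0591 and 0.0545), with quantile normalization that of RPIA (0.0731), and in a fit of 2 groups alone that of TPI1 (0.0519). TKT in M-BM passed with quantile normalization (adjusted p = 0.0272), DESeq2 (0.0291) and 2 groups alone (0.0339), and PDK1 in M-BM with quantile normalization (0.0282).

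Members that rose in Lat numbered 5 without S-BM 3 and 4 and 5 to 10 without single libraries. Members that rose in M-BM numbered 5 to 9 without single libraries, and members that fell there numbered 8 with DESeq2 and 8 with the 2 groups alone. Between M-BM and Lat, 26 genes passed with a filter of 1, 24 without a filter, 141 with DESeq2 (1 member higher and 1 lower), 5 with the 2 groups alone and 2 to 30 without single libraries. Members above Pa in S-BM numbered 2 without scaling of Pa, 2 without S-BM 3 and 4 and 1 to 3 without single libraries. Members below Pa in S-BM numbered 2 without S-BM 3 and 4 and 1 to 3 without single libraries.

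With the replicate number as a block, TKT passed in M-BM minus S-BM (−0.33, adjusted p = 0.0386), and no other call of a named member changed. In 5 of 12 libraries the strongest correlation with another group was with the same number, which is a hint from the data and not the design. Depth limits SLC2A3 and PDK4 most, which did not exceed 0.28 in any library, close to the value of 3 reads.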
